A study of Mus musculus with 203 samples.

Results

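The Fc receptor genes described here are Fcgr1, Fcgr3, Fcgr4, Fcgr2b, Fcer1g and Fcgrt, taken by gene symbol from the RNA-seq tables of the study. All 6 were among the 25094 genes of the RAW cell table, and all 6 were among the 12905 of those genes that passed the filter on low values and were tested. The 6 are also listed among the 16478 genes of the BMDM table. That table holds the authors' own comparisons in place of values per library, so Gps2 KO and WT BMDMs were not analysed here.

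RAW264.7 cells (RAW cells) are a mouse macrophage cell line, with BALB/c given as the strain. They were transduced with lentivirus carrying a short hairpin RNA, either shGFP, the control hairpin, or shKDM1A, a single hairpin against Kdm1a, which encodes the histone demethylase KDM1A (LSD1). Cells of each line were left without IL4 or were incubated with 20 ng/ml of IL4 for 6 h, which gives 4 groups of 4 libraries: shGFP control, shGFP IL4, shKDM1A control and shKDM1A IL4. All 4 groups therefore carry a lentiviral hairpin, and no untransduced cells enter the comparisons. With a single hairpin against Kdm1a, loss of KDM1A, other effects of this hairpin and differences between the lines cannot be told apart. Below, knockdown names the comparison of shKDM1A with shGFP cells. The study used these cells to ask how loss of KDM1A alters the response of macrophages to IL4.

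Fc receptors bind the constant part of antibodies. Fcgr1, Fcgr3 and Fcgr4 encode activating receptors for IgG, which signal through the ITAM, a tyrosine motif, of the common γ chain encoded by Fcer1g, and so link antibody-coated particles to phagocytosis. Fcgr2b encodes the inhibitory IgG receptor of macrophages, whose ITIM recruits the lipid phosphatase SHIP1, the product of Inpp5d. Fcgrt encodes the heavy chain of the neonatal Fc receptor FcRn, which pairs with β2-microglobulin in endosomes and returns IgG to the surface. IL4 drives macrophages to the alternatively activated (M2) state.

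Library totals ran from 17554721 to 27782568 tags. The deposited values are on a log2 scale. The median SD within groups was 0.02 over genes with a mean from 1 to 3, 0.06 from 7 to 9 and 0.04 above 11, so the spread did not widen at low values as it does for logarithms of plain counts. Whether the differences of Fcgr4 and Fcgrt, the lowest of the 6 genes, are compressed was not tested. Kdm1a, the targeted gene, was at 11.18 ± 0.04 (SD, n = 4) in shGFP control cells and at 10.30 ± 0.05 (SD, n = 4) in shKDM1A control cells, a log2 difference of -0.88 (standard error 0.03, limma adjusted p = 5.6e-13), and with IL4 the difference was -0.79 (standard error 0.03). Of 8 macrophage markers 7 were tested, Mertk being below the filter, and all 5 mast cell and basophil markers (Cpa3, Kit, Mcpt8, Ms4a2 and Fcer1a) and all 3 NK cell markers were listed at 0 in every library. None of 4 B cell and 4 T cell markers passed the filter. The summed log2 level of the 7 macrophage markers ran from 17.62 to 17.67 in shGFP control, 17.30 to 17.32 in shGFP IL4, 17.83 to 17.86 in shKDM1A control and 17.73 to 17.83 in shKDM1A IL4 cells, so it moved with both conditions. The sum is mostly Lyz2, and its members went different ways: with IL4 in shGFP cells Adgre1 was at 1.24 and Csf1r at 0.26, Lyz2 at -0.53 and Cd14 at -0.93, while Cd68, Itgam and Spi1 were not called. In shKDM1A against shGFP cells without IL4, 5 were higher, among them Itgam at 0.41 and Lyz2 at 0.26. The 2 lower ones were Adgre1 at -0.11 and Cd14 at -0.08. With IL4, 6 were higher, among them Lyz2 at 0.68 and Cd14 at 0.40, and 1 was lower, Adgre1 at -0.44. Osteoclast markers were also present, 3 of 4 being tested, with a summed log2 level from 7.85 to 7.93 in shGFP control, 8.11 to 8.17 in shGFP IL4, 7.97 to 8.03 in shKDM1A control and 8.12 to 8.20 in shKDM1A IL4 cells, and Calcr below the filter. With IL4 in shGFP cells Acp5 was at 0.35, Ocstamp at 0.29 and Ctsk at -0.09. After knockdown without IL4 Ctsk was at 0.44, Ocstamp at -0.17 and Acp5, which was not called, at 0.06. Of 4 dendritic cell markers 3 were tested, at a sum from 4.51 to 4.64, and of 5 neutrophil markers 1 was tested, at no more than 1.26. The part of these markers in the values below was not tested.

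In the mm9 build used for the tables, 4 of the genes lie on chromosome 1: Fcgr2b at chr1:172890689-172906202 on the minus strand, Fcgr4 at chr1:172949057-172959892 on the plus strand, Fcgr3 at chr1:172981300-172989534 on the minus strand and Fcer1g at chr1:173159703-173164480 on the minus strand. Fcgr4 and Fcgr3 are 21.4 kb apart, and Fcgr2b and Fcgr4 are 42.9 kb apart. Fcgr1 lies at chr3:96086832-96097892 and Fcgrt at chr7:52348363-52359192, both on the minus strand.

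The promoters of the 4 IgG receptor genes are shown because these genes moved in different directions. RefSeq windows of GRCm38.p6, which reach from 250 bases before to 50 bases after the annotated start, were found for all 6 genes, with a second window for Fcgr3 that overlaps the first and holds the same matches. The lines give the 150 bases before the start, 5′ to 3′ on the strand of the gene, at chr3:96293970-96294119 (minus strand), chr1:171059404-171059553 (minus strand), chr1:171018776-171018925 (plus strand) and chr1:170976072-170976221 (minus strand) of GRCm38.p6. Capitals mark matches, on either strand, to a PU.1-type core (GAGGAA), to a STAT6-type palindrome (TTCNNNNGAA) or to an interferon-type repeat (GAAA and GAAA, parted by 2 bases).
Fcgr1: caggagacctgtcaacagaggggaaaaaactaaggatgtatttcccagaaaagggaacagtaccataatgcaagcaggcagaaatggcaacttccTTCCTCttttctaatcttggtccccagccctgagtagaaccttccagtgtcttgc
Fcgr3: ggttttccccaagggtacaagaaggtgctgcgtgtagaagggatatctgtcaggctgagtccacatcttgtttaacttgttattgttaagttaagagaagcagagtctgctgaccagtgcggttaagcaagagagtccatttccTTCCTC
Fcgr4: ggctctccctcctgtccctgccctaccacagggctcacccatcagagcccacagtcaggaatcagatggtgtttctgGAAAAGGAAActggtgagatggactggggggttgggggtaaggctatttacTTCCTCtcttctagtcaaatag
Fcgr2b: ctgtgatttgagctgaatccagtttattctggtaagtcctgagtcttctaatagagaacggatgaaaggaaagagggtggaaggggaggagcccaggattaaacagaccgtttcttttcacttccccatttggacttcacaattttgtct

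Fcgr1, Fcgr3 and Fcgr4 each held 1 match to the PU.1-type core in the whole window, against 28.3% of all 32851 promoter windows with at least 1. In Fcgr1 this match lay at positions -55 to -50 from the start. Fcgr4 held an interferon-type repeat at positions -73 to -64, a motif found in 3.44% of all windows. Fcgr2b, Fcer1g and Fcgrt held no match to these 3 motifs in their windows, and none of the 6 genes held the STAT6-type palindrome, which 6.95% of all windows hold. The shorter ETS core (GGAA), which lies inside the PU.1-type core and overlaps the repeat of Fcgr4, was matched 3 to 7 times in each of the 6 genes and in 96.0% of all windows. Matches describe the letters of these windows only.

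Levels of different genes were compared after subtracting log2 of the transcript length in kb that the table gives. On this scale Fcer1g stood far above the receptors it serves, at 12.79 in shGFP control cells, higher than 98.4% of the tested genes. Fcgr1, the high-affinity IgG receptor, followed at 8.63, then Fcgr2b at 8.00, Fcgr3 at 7.96, Fcgrt at 5.58 and Fcgr4 at 4.98. Fcgr4 was thus the lowest of the 6, above 21.8% of the tested genes. The order was the same in the other groups, except that Fcgr3 stood above Fcgr2b in shKDM1A control cells. Within each group the ranges over the 4 libraries separated neighbours in that order, except Fcgr2b and Fcgr3 in shGFP control cells, whose ranges overlapped.

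Fcgr2b and Fcgr3 lay close to each other, and the gap between them moved with the conditions. The level of Fcgr3 minus that of Fcgr2b, per length and on the log2 scale, was -0.03, -0.05, 0.05 and -0.13 in the 4 shGFP control libraries. In shGFP IL4 cells it was -0.41, -0.50, -0.50 and -0.44. The shKDM1A control libraries gave 0.14, 0.05, 0.17 and 0.12, and the shKDM1A IL4 libraries gave -0.39, -0.29, -0.36 and -0.30. Per length, Fcgr3 stood above Fcgr2b in 4 of 4 shKDM1A control libraries and below it in all 8 libraries with IL4. The sign in the control groups rests on the 1 transcript length listed for each gene: on the deposited scale, without the length, the difference was -0.23 ± 0.07 (SD, n = 4) in shGFP control and -0.07 ± 0.05 in shKDM1A control cells, with -0.65 ± 0.05 and -0.53 ± 0.05 in the groups with IL4, so that Fcgr3 was below Fcgr2b in all 16 libraries. Of the 50-base words of the annotated protein-coding transcripts, 166 are shared between both genes, 10.2% of those of Fcgr3 and 10.1% of those of Fcgr2b, so that reads from these stretches are uncertain between them. None of the other pairs among the 6 genes shared such a word.

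**Figure D1:**
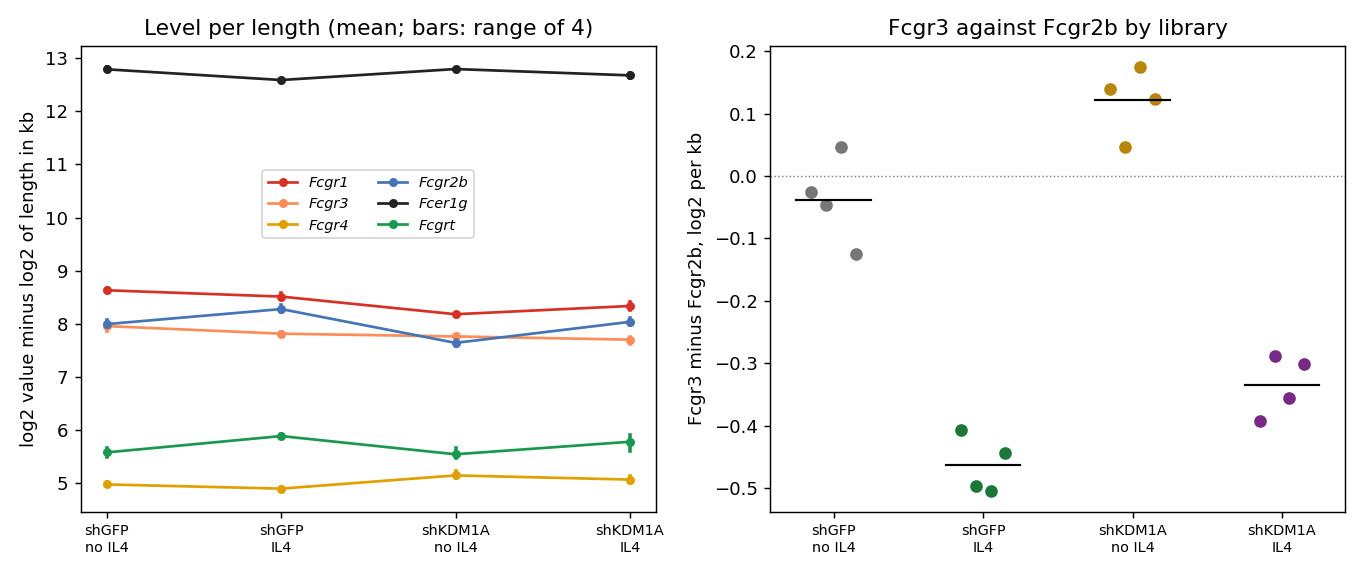
Left, deposited log2 value minus log2 of transcript length in kb (y axis) of the 6 genes in the 4 groups, as the mean of 4 libraries with bars from the lowest to the highest. Right, Fcgr3 minus Fcgr2b on the same scale in each library (points) with the group mean (line); the 4 shKDM1A control libraries lie above 0 and the 8 libraries with IL4 lie below -0.28.

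The mean of the 3 activating receptors minus Fcgr2b, on the deposited log2 scale, gives each activating receptor the same weight, whatever its level. It was -0.72 ± 0.05 (SD, n = 4) in shGFP control and -1.12 ± 0.05 in shGFP IL4 cells, with no overlap between the libraries of both groups. In shKDM1A control cells it was -0.53 ± 0.07, and in shKDM1A IL4 cells -0.92 ± 0.02. This score was lower with IL4 in both lines and higher in shKDM1A than in shGFP cells in both conditions, in each case without overlap. When the activating receptors were summed per length before taking the logarithm, so that Fcgr1 counted most, the value relative to Fcgr2b was 1.41 ± 0.04 in shGFP control and 1.44 ± 0.06 in shKDM1A control cells, whose libraries overlapped, against 1.00 ± 0.04 and 1.11 ± 0.04 with IL4. The difference between the lines without IL4 thus depended on the weighting, while the lower value with IL4 did not. This sum was chosen after seeing the data, and no test was made of either score.

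In shGFP cells IL4 lowered the signalling chain and the more abundant activating receptors and raised the inhibitory receptor and FcRn. With limma and Benjamini-Hochberg adjustment over all tested genes, Fcgr1, Fcgr3 and Fcer1g were called lower and Fcgr2b and Fcgrt higher, 5 of the 6 genes, where 26.9% of the 12905 tested genes were called, 13.1% higher and 13.7% lower. All 6 genes had no overlap between the 4 libraries of both groups, as did 28.3% of the tested genes. The median absolute log2 difference of the 6 was 0.17, against 0.05 over all tested genes. In bulk RNA from a culture, fewer cells that express a gene and less RNA per cell cannot be told apart.

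Between the shKDM1A and shGFP lines, without IL4, 4 of the 6 genes were called, Fcgr1, Fcgr3 and Fcgr2b lower and Fcgr4 higher in shKDM1A cells, where 38.2% of all tested genes were called, 19.7% higher and 18.4% lower. With IL4, 5 of the 6 were called, the same 4 in the same directions and Fcer1g higher, where the share over all genes was 40.7%, 20.9% higher and 19.8% lower. In shKDM1A cells IL4 raised Fcgr1, Fcgr2b and Fcgrt and lowered Fcer1g, 4 of the 6 genes against 27.1% of all, 13.6% higher and 13.5% lower. In the interaction term, the test of whether the IL4 response differed between the lines, 1 of the 6 was called, Fcgr1, against 6.13% of all genes, 3.56% higher and 2.57% lower. The comparisons share groups, so their counts are not independent of each other.

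**Figure D2:**
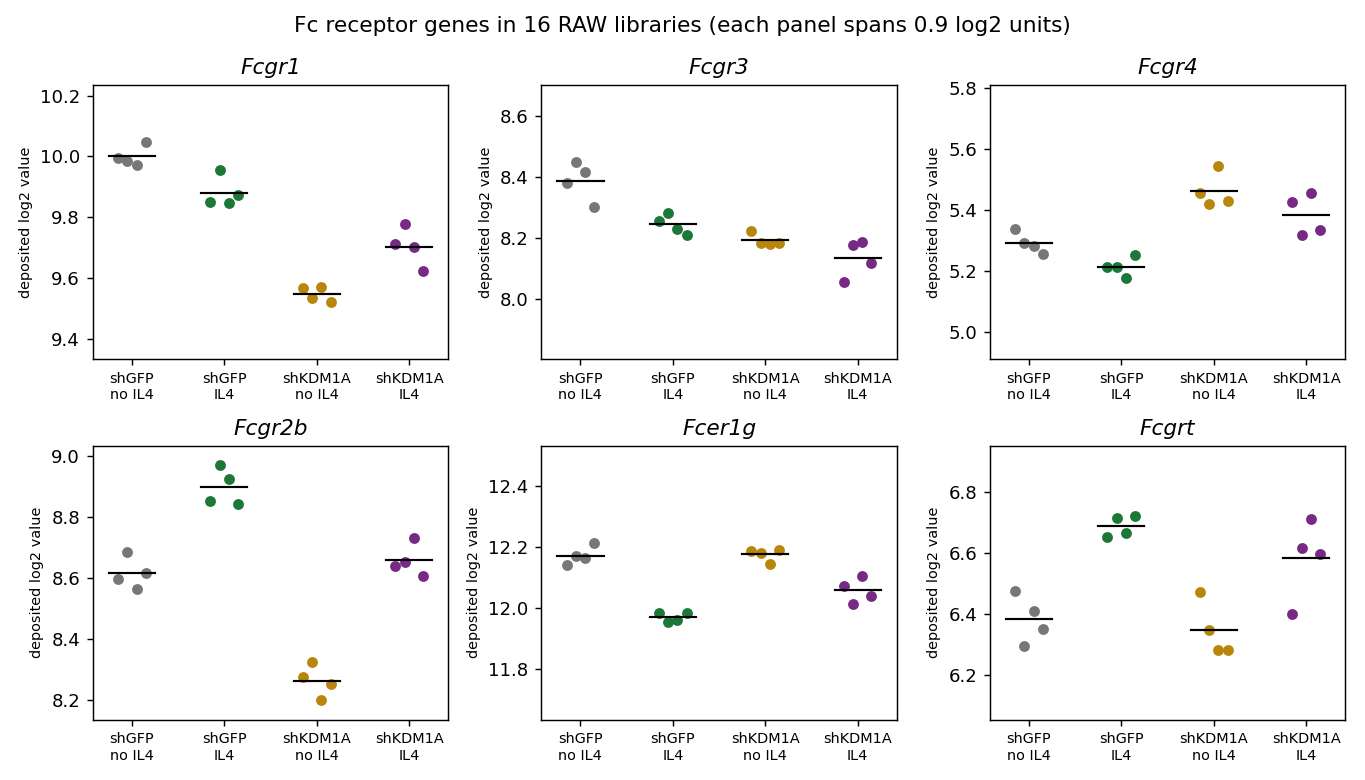
Deposited log2 value (y axis) of each Fc receptor gene in each of the 16 RAW libraries (points, 4 per group) with the group mean (line); every panel spans the same number of log2 units. Fcgr1 is lowest in shKDM1A control cells (9.52 to 9.57), and Fcgr2b is highest in shGFP IL4 cells (8.84 to 8.97).

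Fcgr1 was the only member called in the test of whether the IL4 response differed between the lines. Its log2 values were 9.99, 9.99, 9.97 and 10.05 in shGFP control and 9.85, 9.96, 9.85 and 9.87 in shGFP IL4 cells. They were 9.57, 9.54, 9.57 and 9.52 in shKDM1A control and 9.71, 9.78, 9.70 and 9.62 in shKDM1A IL4 cells. IL4 thus lowered Fcgr1 in one line and raised it in the other, with no overlap between control and IL4 libraries in either. The log2 difference with IL4 was -0.12 (standard error 0.03, adjusted p = 0.0096) in shGFP cells and 0.15 (standard error 0.03, adjusted p = 0.0013) in shKDM1A cells. The difference between these responses, the interaction term, was 0.27 (standard error 0.04, 95% confidence interval 0.18 to 0.37, adjusted p = 0.0016). Put the other way, Fcgr1 was lower in the shKDM1A line at -0.45 (standard error 0.03, adjusted p = 6.7e-09) without IL4 and -0.18 (standard error 0.03, adjusted p = 0.00026) with IL4.

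Fcgr3, the low-affinity activating receptor, was highest in shGFP control cells. Its values were 8.38, 8.45, 8.42 and 8.30 there, 8.26, 8.28, 8.23 and 8.21 with IL4, 8.22, 8.18, 8.18 and 8.18 in shKDM1A control and 8.05, 8.17, 8.18 and 8.12 in shKDM1A IL4 cells. The shGFP control libraries lay above those of each group compared with them, while the shKDM1A groups with and without IL4 overlapped. The knockdown difference was -0.19 (standard error 0.03, adjusted p = 0.00017) without IL4 and -0.11 (standard error 0.03, adjusted p = 0.012) with IL4. IL4 gave a log2 difference of -0.14 (standard error 0.03, adjusted p = 0.0038) in shGFP cells and of -0.06 (95% confidence interval -0.13 to 0.01, adjusted p = 0.20) in shKDM1A cells. The interaction, 0.08 (standard error 0.05), did not pass the test (adjusted p = 0.31).

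Fcgr4, the activating receptor for IgG2 subclasses of the mouse, was the IgG receptor that was higher after knockdown. Its values were 5.34, 5.29, 5.28 and 5.26 in shGFP control, 5.21, 5.21, 5.18 and 5.25 in shGFP IL4, 5.46, 5.42, 5.55 and 5.43 in shKDM1A control and 5.43, 5.32, 5.46 and 5.33 in shKDM1A IL4 cells. All shKDM1A libraries lay above the shGFP libraries of the same condition. The log2 difference was 0.17 (standard error 0.03) both without IL4 (adjusted p = 0.00087) and with IL4 (adjusted p = 0.00078). Taken as a plain log2 difference this is a 12.5% higher level in either condition, but the transformation of the values is unknown. With IL4 the differences were -0.08 in both lines (standard error 0.03, adjusted p = 0.10 in shGFP and 0.11 in shKDM1A cells), and neither was called. In shGFP cells the groups did not overlap, and the call was made when the fit held only the libraries of the groups compared (adjusted p = 0.037). The interaction was 0.0009 with a 95% confidence interval from -0.10 to 0.10.

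Fcgr2b, the inhibitory receptor, had the largest IL4 response of the 6 in shKDM1A cells. Its values were 8.60, 8.69, 8.56 and 8.62 in shGFP control and 8.85, 8.97, 8.93 and 8.84 in shGFP IL4 cells. In shKDM1A control cells they were 8.27, 8.33, 8.20 and 8.25, and in shKDM1A IL4 cells 8.64, 8.65, 8.73 and 8.61. Each of the 4 comparisons separated its groups without overlap, and the shKDM1A IL4 libraries lay in and just above the range of shGFP control. The log2 difference with IL4 was 0.28 (standard error 0.04, adjusted p = 1.8e-05) in shGFP cells and 0.40 (standard error 0.04, adjusted p = 4.5e-07) in shKDM1A cells. Taken as plain log2 differences these are 21.7% and 31.5% higher levels, but the transformation of the values is unknown. The interaction of 0.11 (standard error 0.05) did not pass the test over all genes (adjusted p = 0.21, unadjusted p = 0.045). The knockdown difference was -0.35 (standard error 0.04, adjusted p = 8.7e-07) without IL4 and -0.24 (standard error 0.04, adjusted p = 6.0e-05) with IL4.

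Fcer1g, the signalling chain, was lowered by IL4 in both lines. Its values were 12.14, 12.17, 12.16 and 12.21 in shGFP control, 11.98, 11.95, 11.96 and 11.98 in shGFP IL4, 12.19, 12.18, 12.14 and 12.19 in shKDM1A control and 12.07, 12.01, 12.10 and 12.04 in shKDM1A IL4 cells. The libraries with IL4 lay below all those without it. The log2 difference with IL4 was -0.20 (standard error 0.02, adjusted p = 2.9e-06) in shGFP cells and -0.12 (standard error 0.02, adjusted p = 0.00065) in shKDM1A cells, with an interaction of 0.08 (standard error 0.03, adjusted p = 0.13, unadjusted p = 0.018). Without IL4 the lines differed by 0.005 (95% confidence interval -0.04 to 0.05, adjusted p = 0.89). With IL4 the difference was 0.09 (standard error 0.02, adjusted p = 0.0046), and after quantile normalization it was 0.04 and no longer called (adjusted p = 0.15).

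Fcgrt, the FcRn heavy chain, was raised by IL4 in both lines and had the largest standard error of the 6. Its values were 6.47, 6.30, 6.41 and 6.35 in shGFP control and 6.65, 6.71, 6.67 and 6.72 in shGFP IL4 cells. In shKDM1A control cells they were 6.47, 6.35, 6.28 and 6.28, and in shKDM1A IL4 cells 6.40, 6.62, 6.71 and 6.60, so that the ranges of both groups overlapped through 1 library of each. The log2 difference with IL4 was 0.31 (standard error 0.06, adjusted p = 0.00069) in shGFP cells and 0.24 (standard error 0.06, adjusted p = 0.0054) in shKDM1A cells. The latter reached p = 0.057 in an exact two-sided permutation test of 4 against 4 libraries, whose smallest possible p is 0.029. The lines differed by -0.04 (95% confidence interval -0.16 to 0.09) without IL4 and by -0.11 (95% confidence interval -0.23 to 0.01, adjusted p = 0.15) with IL4. Without the third shKDM1A IL4 library the latter was -0.15 and was called (adjusted p = 0.048). Over the refitted alternatives this difference with IL4 ran from -0.15 to -0.05, with adjusted p from 0.048 to 0.49.

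**Figure D3:**
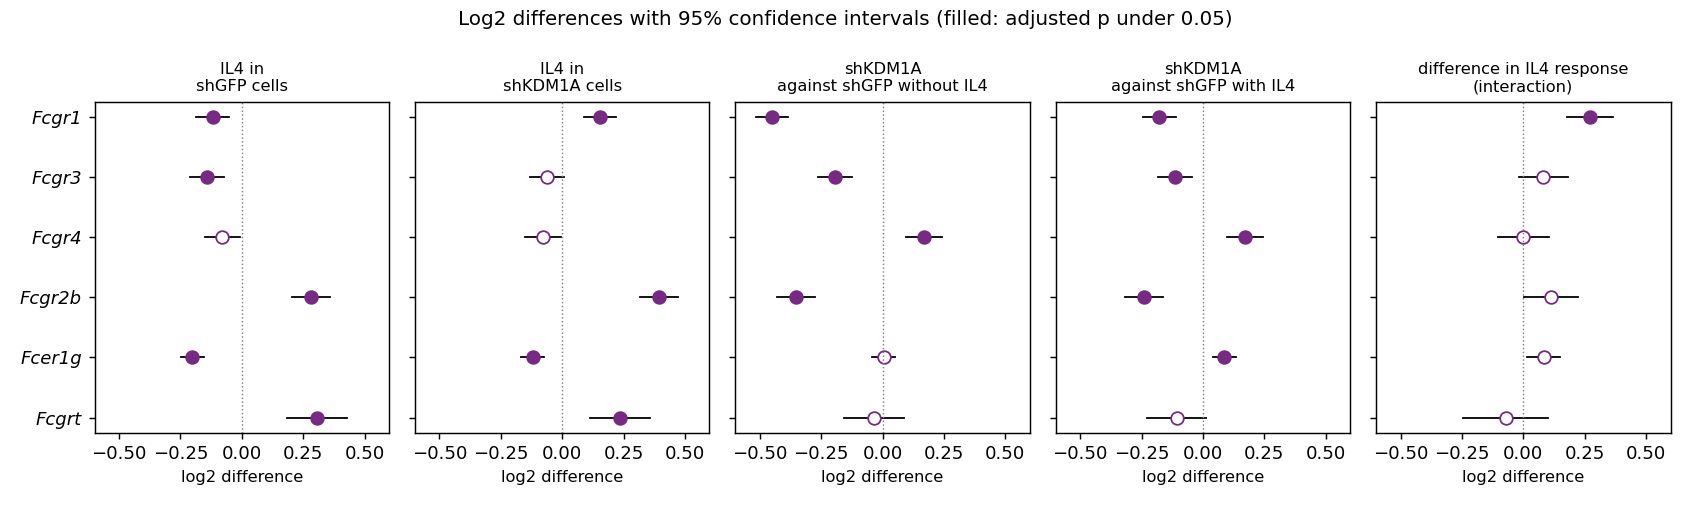
Log2 difference (x axis, points) of each Fc receptor gene in the 5 comparisons of the RAW libraries, with 95% confidence intervals from limma (lines) and filled points where the adjusted p is under 0.05. Fcgr1 is the 1 gene with a filled point in the interaction panel (0.27), and Fcgr4 lies on the other side of 0 from Fcgr1, Fcgr3 and Fcgr2b in both knockdown panels.

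Of the nearest tested genes next to the chromosome 1 cluster, Fcrlb was called higher with IL4 in shGFP cells (log2 difference 0.07) and in no other comparison, Cfap126 was called in none, and Dusp12 was lower in shKDM1A control cells at -0.15 (adjusted p = 0.0033) and higher with IL4 in shKDM1A cells at 0.10 (adjusted p = 0.044). Sdhc, which encodes a subunit of succinate dehydrogenase, was lower with IL4 in both lines (-0.16 and -0.06) higher in shKDM1A than in shGFP cells with IL4 (0.07), and passed the interaction test at 0.11 (adjusted p = 0.032). Next to Fcer1g, Apoa2 and Adamts4 were called in no comparison, and Tomm40l was higher in shKDM1A than in shGFP cells with IL4 (0.11, adjusted p = 0.036). Beside Fcgr1, the histone genes Hist2h2bb and Hist2h3b and the telomerase RNA gene Terc were called in none, while Txnip, 264.0 kb away, was lower with IL4 in both lines (-0.33 and -0.28) and higher after knockdown (0.13 without and 0.18 with IL4). Beside Fcgrt, Nosip was higher with IL4 in shKDM1A cells at 0.17 (adjusted p = 0.00089), and Prrg2 and Snord35b were called in no comparison.

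Across the 16 libraries, the genes with the most similar profiles were sought for each member by Pearson correlation, which here mostly reflects the 4 group means. For Fcgr2b the closest of all tested genes was Inpp5d (r = 0.97), the gene of its effector phosphatase, followed by Trim28 and B4galnt1 (0.97 and 0.96). Fcgr1 was closest to Atp5a1, Ifi27 and Tlr2 (0.96, 0.95 and 0.95), and Fcgr3 to Rps6kb1, Mapk14 and Tpd52 (0.94, 0.93 and 0.93). Fcgr4 was closest to Aldh3b1, Pja1 and Ifitm2 (0.94, 0.94 and 0.94), Fcer1g to Hspa5, Cd14 and Prxl2a (all 0.97), and Fcgrt to Gps2, Stab1 and Olr1 (0.91, 0.91 and 0.90). Among the members themselves, the correlation was highest between Fcgr2b and Fcgrt (0.76) and lowest between Fcer1g and Fcgrt (-0.84).

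Few other Fc and Fc-like receptors were measured. Of 13 listed genes of this group, 3 were tested, and 10 were below the filter, among them Fcer1a, Ms4a2, Fcamr, Pigr and Fcmr, which were listed at 0 in every library. Fcrl1, an Fc receptor-like gene known from B cells, was at 9.94 ± 0.03 (SD, n = 4) in shGFP control and 10.47 ± 0.04 in shKDM1A control cells, a log2 difference of 0.53 (standard error 0.04, adjusted p = 4.1e-09), while none of the 4 B cell markers passed the filter. With IL4 it fell by 0.39 in both lines. Trim21, the cytosolic antibody receptor, was lower with IL4 in shGFP cells at -0.17 (adjusted p = 0.0097).

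Genes on a list of ITAM adaptors and of receptors that pair with them moved in both directions. The list also holds Hcst, an adaptor without an ITAM, and Treml1, a receptor with an ITIM. Hcst is among those called higher in shKDM1A cells, at 0.12 without and 0.13 with IL4. Of 18 tested, 6 were higher and 3 lower in shKDM1A than in shGFP cells without IL4, with a median log2 difference of 0.01, against 19.7% higher and 18.4% lower over all tested genes. In the knockdown comparison with IL4, 5 were higher and 4 lower, against 20.9% and 19.8% of all. Without IL4, Clec4e (Mincle), a receptor that signals through the same γ chain, was at -0.45 and Clec5a at -0.29, while Cd300ld was at 0.34. With IL4 in shGFP cells, where 26.9% of all tested genes were called, 3 were higher and 4 lower, with Clec5a at 0.32 and Clec4d at -0.34. In the interaction, where 3.56% of all tested genes were higher and 2.57% lower, 3 were called, all higher: Clec4e (0.24), Clec4d (0.16) and Clec5a (0.12), which were named because the count was small.

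Among the 29 ITAM signalling genes, 7 were higher and 10 lower after knockdown without IL4, and 7 were higher and 13 lower with IL4. Over all tested genes 38.2% and 40.7% were called in these comparisons, in nearly equal parts in each direction. Without IL4, Syk, the kinase that docks on phosphorylated ITAMs, was at -0.40 (standard error 0.02, adjusted p = 9.2e-11) and the adaptor Blnk at -0.64, while the adaptor Pik3ap1 was at 0.49. IL4 in shGFP cells, with 26.9% of all tested genes called, gave 8 higher and 6 lower, with Lcp2 (SLP-76) at -0.53 and the ubiquitin ligase Cbl at 0.38. In shKDM1A cells IL4 gave 6 higher and 11 lower, where 13.6% of all were higher and 13.5% lower.

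On the inhibitory side, a list of ITIM receptors and inhibitory phosphatases was used that also holds the adaptors Dok1, Dok2 and Pag1, the kinase Csk and Siglec1, a receptor without an ITIM. Of its 19 tested genes, 10 were lower and 4 higher after knockdown without IL4, with a median of -0.07 against -0.003 over all tested genes, of which 18.4% were lower and 19.7% higher. In the knockdown comparison with IL4, 7 were lower and 5 higher, with a median of 0.02, against 19.8% and 20.9% of all. Without IL4, Inpp5d was lower by a log2 difference of -0.25, the signal-regulatory receptor Sirpa was at -0.47 and Cd300lf at -0.59. Siglec1, the sialic acid-binding adhesion receptor CD169, was at 1.38 (standard error 0.05, adjusted p = 1.3e-12). With IL4 in shGFP cells 7 were higher and 5 lower, against 13.1% and 13.7% of all. Inpp5d was then at 0.30 and Lair1 at 0.39, while Lilrb4a was at -0.52.

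Of 20 tested genes of the phagocytic cup and oxidase, 3 were higher and 6 lower after knockdown without IL4, and 6 were higher and 4 lower with IL4, against 38.2% and 40.7% of all tested genes called. Without IL4, Coro1a was at -0.18, Cybb, the catalytic subunit of the NADPH oxidase, at -0.16 and Arpc5, of the actin-nucleating complex, at 0.16. IL4 in shGFP cells gave 5 higher and 4 lower, against 26.9% of all tested genes called, and the largest were Cybb at -0.62 and the myosin gene Myo10 at 0.61.

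On a list of the FcRn partner and of endosomal sorting genes, those called were mostly higher after knockdown, while Fcgrt itself was not called. This list also holds Tfrc and Lamp1, genes of other membrane proteins, both called higher after knockdown with and without IL4. Of 10 tested, 7 were higher and 0 lower without IL4, and 7 were higher and 1 lower with IL4, where 19.7% and 20.9% of all tested genes were higher. Without IL4, B2m, which encodes β2-microglobulin, was at 0.55 (standard error 0.02, adjusted p = 3.4e-12), Tfrc, the transferrin receptor, at 0.76 and the sorting nexin gene Snx1 at 0.47. The median of the 10 was 0.12, against -0.003 over all tested genes. With IL4 in shGFP cells 1 was higher and 3 lower, where 13.1% and 13.7% of all were, among them B2m at -0.25 and Tfrc at -0.21, the direction opposite to that of Fcgrt.

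**Figure D4:**
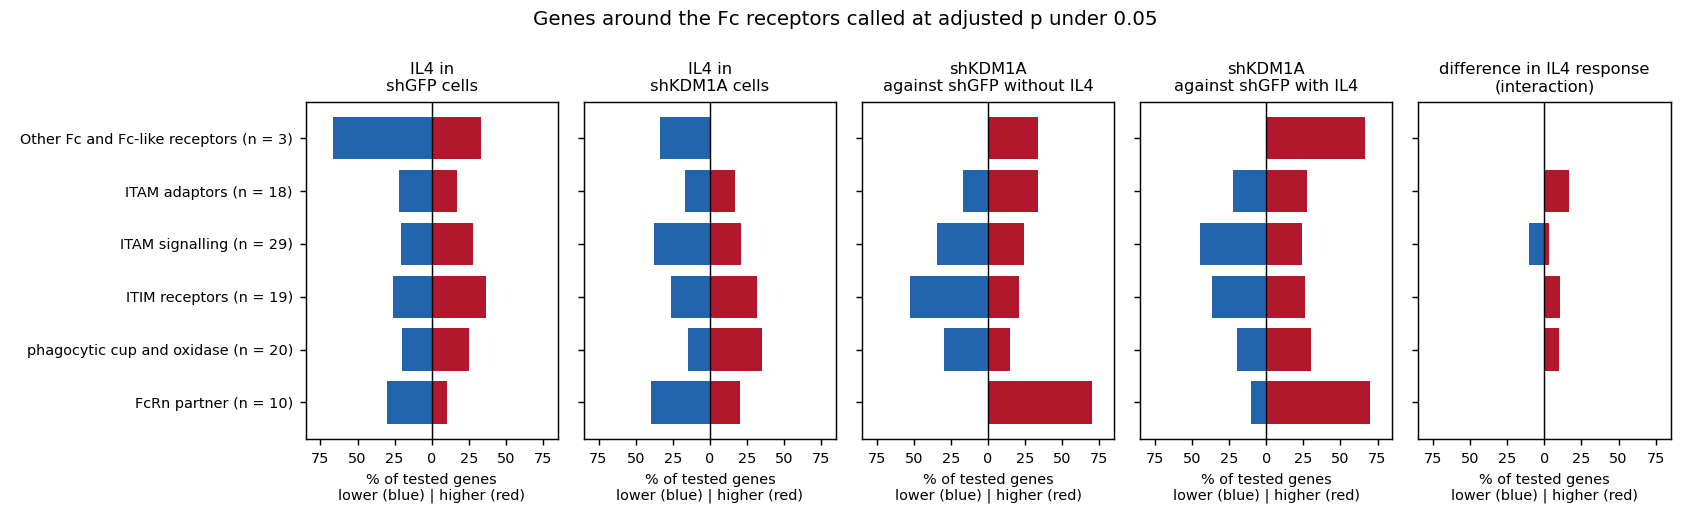
Share of the tested genes of each list (x axis, percent) that were called lower (blue, to the left) or higher (red, to the right) at an adjusted p under 0.05 in the 5 comparisons; n is the number of tested genes of the list. Of the 10 genes of the FcRn partner list, 7 are higher in shKDM1A than in shGFP cells both without and with IL4.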

How the data were processed

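RNA-seq of 16 RAW libraries was analysed. The authors mapped reads to mm9 (the submitters' processing notes name HISAT2, Bowtie2, HOMER and DESeq2), counted exon reads per RefSeq gene on both strands, and deposited log2 values for each gene in each library; the transformation is not given in the sources used here, and no count model was used. Decimals are written with commas. Columns with the authors' own comparisons (fold changes on a log2 scale with p-values) were not used, 4 for BMDMs and 3 for RAW cells, and the BMDM table holds nothing else, so BMDM comparisons were not run.

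Groups followed the labels. Genes that reached 1 in 4 or more libraries (12905) were fitted in R 4.3.3 with limma 3.58.1 (lmFit, contrasts.fit and eBayes, 4 group means, all 16 libraries), with Benjamini-Hochberg adjustment per comparison and calls at an adjusted p under 0.05. The fit was tested on simulated data. The labels do not state that libraries of a group came from separate cultures, and p-values then measure only the spread between these libraries. Alternatives were no filter, the groups in the fit, a replicate block, leaving out each library, a trended prior variance, quantile normalization, median centring and an exact permutation test. The permutation p was not adjusted.

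The members and gene lists were chosen with earlier results of these data known. Text names the 6 members, their 2 nearest tested genes on each side, the 3 tested genes most correlated with each, and for each list the 3 called genes with the largest knockdown difference without IL4 and the 2 with the largest IL4 difference in shGFP cells; others were named after their values were seen. Promoter windows came from RefSeq (GRCm38.p6) and transcripts for shared 50-base words from GENCODE; coordinates of both builds were kept apart. Some neighbouring genes and 1 motif are not reported here.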

Additional observations from a re-analysis of the deposited data

Results flagged for a closer look

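Fcgr1 differed between the lines in its IL4 response, with an interaction of 0.27 on the log2 scale (adjusted p = 0.0016, limma), IL4 libraries lying below the control libraries in 4 of 4 shGFP libraries and above them in 4 of 4 shKDM1A libraries. The first shKDM1A control library was far from the other 3 in Fcgr3, at 8.22 against 8.18 in the nearest, in a group whose spread was small (SD 0.02). This was 1 of 24 groups examined, and chance marks about 1 in 20.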

How the results depend on the processing

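Of the counts of members and of all genes called, 221 values under the alternatives stayed within 1.5 times the reported count. The exception was the count of all genes passing the interaction test, 791, which was 431 without the filter on low values; the cause was not tested. Among the single differences of the 6 genes, 672 kept their call and 6 did not. Of the latter, Fcgr4 with IL4 in shGFP cells was called with only the groups compared (adjusted p = 0.037). It was also counted as called in the exact permutation test, at an unadjusted p = 0.029, the smallest possible. Fcgr4 with IL4 in shKDM1A cells was called without the third shKDM1A IL4 library (-0.10, adjusted p = 0.039). The other 3, for Fcer1g and Fcgrt, are given with those genes above. No called difference changed sign. Summing the activating receptors per length, chosen after seeing the data, moved the difference of the activating minus inhibitory score between the lines from 0.19 to 0.035 without IL4 and from 0.20 to 0.11 with IL4. The interaction of Fcgr1 stayed between 0.25 and 0.30, with adjusted p from 0.00059 to 0.0080. Leaving out each library in turn gave 5, 4 to 5, 4, 5 to 6 and 1 members called in the order IL4 in shGFP cells, IL4 in shKDM1A cells, knockdown without IL4, knockdown with IL4 and interaction. For all genes the interaction count then ran from 530 to 1104.

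With the replicate number as a replicate block, 5, 4, 4, 5 and 1 members were called in the same order, and 3430, 3459, 4882, 5212 and 732 of all genes. The numbers mark no stated pairing: deviations of same-numbered libraries correlated from -0.34 to 0.27, 3 of 24 pairs over 0.1, and 6 of 16 libraries correlated best with their own number. The transformation behind the deposited values is unknown, which limits what the size of a difference means, and Fcgr2b and Fcgr3 share sequence.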
